A study of Homo sapiens with 2 samples.

Results

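The RNA of a recombinant U2OS line held many long transcribed regions that no reference transcript covered in the deposited transcript tables. These loci are gene entries in which every transcript carries an assembly name beginning with CUFF., the mark that Cufflinks gives to transcripts it built from reads alone. A locus was taken when its longest transcript had 1000 bases or more and its FPKM (fragments in each kilobase of a transcript, relative to all mapped fragments) was 1 or more. By this rule 1406 of 56294 gene entries were taken in replicate 1 (2.50%) and 1777 of 66625 in replicate 2 (2.67%). Loci of both libraries whose spans shared at least 1 base were joined, which gave 955 shared regions. These loci were thus chosen by their assembly names, transcript length and FPKM, so counts and levels that rest on them are given as description and no test was made.

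U2OS is an osteosarcoma line, and the G1S-CCPM-Cas9 derivative carries a reporter of passage from G1 into S phase and a stably expressed Cas9 nuclease. The reporter joins a green fluorescent protein to the C-terminal domain of HELB, a DNA helicase, and Cas9 is driven by the CAG promoter. Both libraries came from untreated cells, grown at 37 °C in 5% CO2 with 10% serum and 500 µg/mL geneticin, and all cells carried both transgenes. They form 1 group of 2 replicates with no contrast between conditions, and no label tells whether they came from separate cultures, so differences between them may be only technical.

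Transcription reaches well beyond the exons listed in any gene catalogue. Long intergenic noncoding RNAs are transcribed from their own promoters and are often spliced and polyadenylated, and many are made in few cell types, so that catalogues differ in which of them they hold. Messenger RNAs can run on to later poly(A) sites than the catalogued end, introns can be kept in polyadenylated RNA, and processed pseudogenes can be transcribed from neighbouring promoters. A guided assembly reports each such stretch as a locus of its own when no read joins it to a listed transcript. Poly(A) selection, as used for these libraries, favours RNA with a tail and also captures RNA with internal runs of A.

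Sequences are shown for annotated noncoding genes with a transcript that ends inside a shared region, where the region ran past that end. A gene may have other transcripts that end farther on, so the region may still lie inside the gene. Each line gives the last 100 bases of the transcript in GENCODE 29 (GRCh38), 5′ to 3′ on the strand of the gene. Capitals mark ATTAAA where it lies in the last 50 bases; AATAAA, the commoner form of the poly(A) signal, was searched in the same window and was not found there in these lines. PURPL, a p53-regulated noncoding RNA, was added after its values were seen.
LINC00958 (chr11:12961842-12961941, minus strand): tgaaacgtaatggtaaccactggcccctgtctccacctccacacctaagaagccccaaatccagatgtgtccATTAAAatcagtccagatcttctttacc
AC245041.1 (chr10:47970043-47970142, minus strand): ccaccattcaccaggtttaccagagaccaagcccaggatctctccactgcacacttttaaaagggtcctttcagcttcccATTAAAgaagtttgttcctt
LINC00973 (chr3:98982997-98983096, plus strand): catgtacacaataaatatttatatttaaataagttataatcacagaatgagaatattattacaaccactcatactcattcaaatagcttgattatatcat
PURPL (chr5:27486047-27486146, plus strand): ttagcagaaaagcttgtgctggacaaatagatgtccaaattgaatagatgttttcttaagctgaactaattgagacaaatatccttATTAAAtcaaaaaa

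In replicate 1 the locus at LINC00958 reached 4898 bases past the printed end, and in replicate 2 it reached 5832 bases past. The loci at PURPL reached 2687 and 2706 bases past, those at LINC00973 1557 and 1651 bases, and those at AC245041.1 1394 and 1395 bases. The AC245041.1 region also overlaps the deposited span of the coding gene ANXA8, which was at 46.2 and 50.6. Only 10.1% of that region is exon in GENCODE 29, and without strand its level cannot be assigned to either gene. The stretch past the end was thus close to the same length in both libraries at 3 of these 4 genes, and differed most at LINC00958. Noncoding transcript ends inside shared regions numbered 131, taking 1 for each gene and region. The locus ran a median of 1185 bases past the chosen end in replicate 1 and 1271 bases in replicate 2, whether or not the gene itself went farther. AATAAA or ATTAAA, on the strand of the gene, lay in the last 50 bases at 40 of these 131 ends (30.5%). Counting every transcript that ends inside a shared region, it was 50 of 182 (27.5%). Of all 29546 noncoding transcripts of 100 bases or more in GENCODE 29, 39.0% had it. The reverse complements TTTATT or TTTAAT were in the same window of 6.59% of the 182 and 7.44% of the 29546. These matches describe the letters at annotated ends and say nothing of where the RNA in these cells ended.

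Both libraries can be set side by side as a whole. The median coverage per FPKM over the long loci was 5.77 in replicate 1 and 5.56 in replicate 2, close to the 5.78 and 5.57 of all transcripts, and the absolute depth is unknown. Coverage and FPKM come from the same fragments, so this ratio describes the scaling of a library and not the loci. Of 9 bone lineage genes, 5 were at FPKM 1 or more in both libraries, with SPARC, a bone matrix protein, at 312 and 297, the collagen gene COL1A1 at 69.2 and 82.6, and RUNX2, ALPL and SPP1 between 1.67 and 3.03. The other 4 were near or at 0: COL1A2 was at 0.0679 and 0.0809, SP7 at 0.0104 and 0.0108, and the late bone genes IBSP and BGLAP were listed at 0 in both. Of 9 genes of other lineages 3 passed that level. The epithelial gene EPCAM was at 11.98 and 13.8, above RUNX2, ALPL and SPP1 in each library, CDH1 was at 2.36 and 1.17, and the lysosomal CD68 was at 3.54 and 2.33. The other 6, among them the blood cell gene PTPRC at 0.133 and 0.177, were below 0.38 in each library.

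The long loci were many and mostly weak. Together they held 0.369% of the summed FPKM of all gene entries in replicate 1 and 0.412% in replicate 2. Weighted by transcript length, they held 0.962% and 1.28%. Their FPKM had a median of 1.66 and a highest value of 76.0 in replicate 1, and a median of 1.58 and a highest value of 84.9 in replicate 2. Loci at FPKM 10 or more numbered 53 and 49. Transcript length had a median of 1683.5 and a maximum of 14970 bases in replicate 1, and a median of 1742 and a maximum of 21918 bases in replicate 2. All 1406 and all 1777 loci had a status of OK, and the deposited confidence bounds lay a median of 14.1% and 14.5% either side of the value.

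Members lay right at the marks that chose them. In replicate 1 the nearest values to the level mark were 1.00204, 1.00217 and 1.00218 just inside and 0.999554, 0.999230 and 0.999218 just outside. In replicate 2 they were 1.00046, 1.00100 and 1.00138 inside and 0.999762, 0.998704 and 0.998625 outside. For length, the 3 loci just inside had 1001 bases in replicate 1 and 1000 in replicate 2, and those just outside had 998 to 999 bases in replicate 1 and 999 in replicate 2.

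Every long locus consisted of a single unspliced transcript. Transcript length equalled genomic span in all members of both libraries, and no member had a second transcript. The same held for all 24145 loci with assembled transcripts only in replicate 1 and all 34509 in replicate 2, whatever their length or level. Assembled transcripts that shared a gene entry with reference transcripts stood apart from this: 3593 of 4113 were spliced in replicate 1 (87.4%) and 4113 of 4754 in replicate 2 (86.5%). In the tables a spliced assembly was therefore always placed with a reference gene, and a locus without reference transcripts was always a single block. The tables hold no strand for any entry, so the strand of a block cannot be read from them.

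Most of the higher loci were found in both libraries. Of the members, 1065 in replicate 1 (75.7%) and 1027 in replicate 2 (57.8%) belonged to shared regions. Among loci at FPKM 10 or more, 49 of 53 were matched in replicate 1 and 43 of 49 in replicate 2. Among loci at FPKM 1 to 2, 70.7% of 860 were matched in replicate 1 and 43.7% of 1135 in replicate 2. Of the 955 regions, 815 paired 1 locus with 1 locus and 140 held several loci in at least 1 library, whose levels were averaged by length. In the 815 pairs the longer locus exceeded the shorter by a median factor of 1.11, and the longer was that of replicate 2 in 499 pairs and that of replicate 1 in 310.

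Most unmatched loci met some entry of the other library. Of 341 unmatched loci in replicate 1, 134 met only assembled loci under 1000 bases in the other library. A further 92 met a long assembled locus under FPKM 1. Another 54 lay in a reference transcript's span with no locus of assembled transcripts only, and 61 met neither kind of entry. Of 750 unmatched loci in replicate 2, the same 4 counts were 355, 290, 55 and 50. Assembled transcripts that share a gene entry with reference transcripts were not searched for these counts. With every entry counted, 1392 of all 1406 members in replicate 1 overlapped one of replicate 2. The other way round it was 1748 of 1777. The highest unmatched locus of replicate 1, chr14:23583034-23584272, 4234 bases before JPH4, a junctophilin gene, was at FPKM 58.8, and replicate 2 held a 949-base locus there at 66.0. It missed the rule in replicate 2 by length alone. The highest unmatched locus of replicate 2, chr15:48878093-48880183, stood at 76.6 over an exon of EID1, an inhibitor of differentiation whose gene lies inside the span of SHC4. Replicate 1 had reference transcripts there and no locus of assembled transcripts only.

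Other unmatched loci of high level lay at known genes for the most part. In replicate 1 they were at 15.6 in LINC00862, at 10.1 in ARG2 and VTI1B, and at 9.39 beside EGFLAM. Another, at 11.2, touched an exon that GENCODE lists for FITM2, a lipid droplet gene. It lay 936 bases outside the deposited span of FITM2. The FITM2 locus met no reference transcript in replicate 2 and no locus of assembled transcripts only. Whether an assembled transcript listed with a reference gene covered it there was not checked. The EGFLAM locus met 2 shorter loci at 10.3. In replicate 2 they were at 26.1 in an intron of the insulin receptor substrate IRS1, at 11.4 in GSDMD, the gasdermin of pyroptosis, and at 11.0 in STAC. The locus in STAC met 3 shorter loci of replicate 1 at 14.4.

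**Figure D1:**
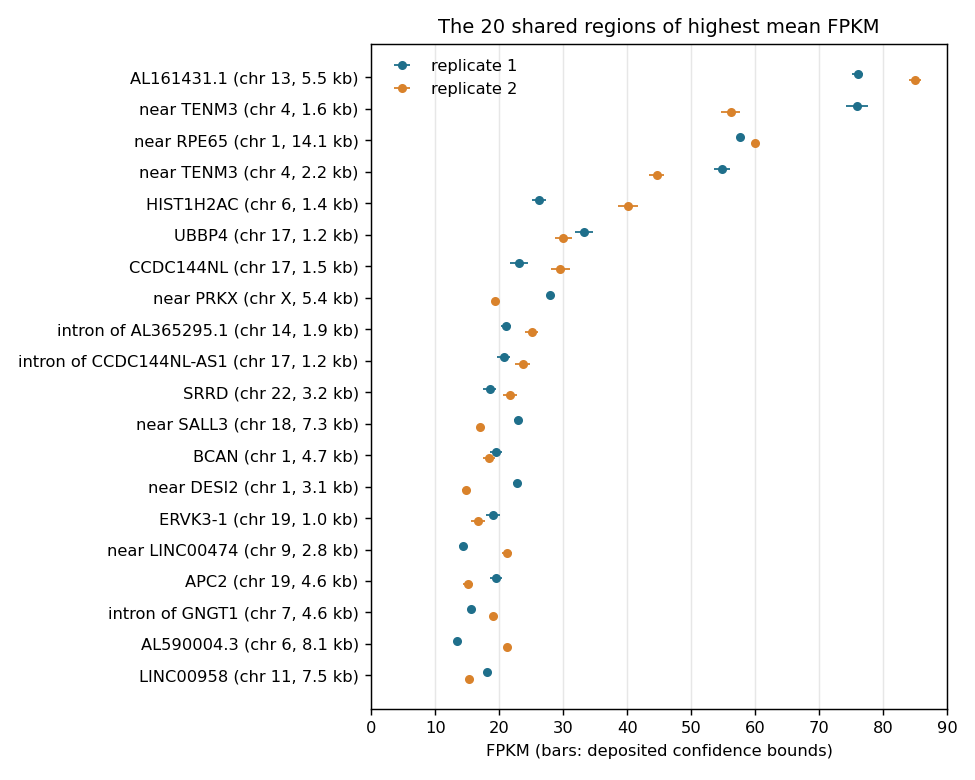
FPKM (x axis) of the 20 shared regions of highest mean in replicate 1 and replicate 2, with deposited confidence bounds as bars. Each label names a GENCODE gene whose exon or intron the region overlaps, or the nearest named gene, with the chromosome and the longest transcript. A region may overlap further genes that its label leaves out. The highest region, at AL161431.1, reached 76.0 and 84.9, and only the first 4 exceeded, in each library, the 40.1 that HIST1H2AC reached in replicate 2.

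The region of highest level lay on the long arm of chromosome 13. It spans chr13:109265404-109270922 and overlaps an exon of the intergenic noncoding gene AL161431.1, which RefSeq lists as LINC03061. It stood at FPKM 76.0 in replicate 1 and 84.9 in replicate 2, a mean of 80.5 ± 6.30 (SD, n = 2), with loci of 5513 and 5517 bases. Only 23.4% of it is exon in GENCODE 29. The nearest named gene of the deposited tables, MYO16, an unconventional myosin, is 57.4 kb away and was at 1.08 and 2.05.

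A pair of regions among the highest lie side by side past the end of TENM3, a teneurin that spans the cell membrane. The region at chr4:182817303-182818929 was at 76.0 and 56.2, and its neighbour at chr4:182814953-182817147 was at 54.8 and 44.6. They begin 14.3 and 11.9 kb past TENM3, which was itself at 28.0 and 34.5. Both regions were above TENM3 in each library, and both were lower in replicate 2 while TENM3 was higher there. Neither overlaps a GENCODE 29 or RefSeq gene.

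The third region was the longest of the highly expressed ones. It spans chr1:68385593-68400105 with loci of 13128 and 14051 bases, stood at 57.6 and 59.9 (58.8 ± 1.64, SD, n = 2), and overlaps no listed gene. The nearest named gene is RPE65, the retinoid isomerase of the retinal pigment epithelium, 28.7 kb away and listed at 0 in both libraries. The 2 values of this region differed by less than those of the regions ranked beside it, although their bounds did not overlap.

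Regions far from named genes continued the list. The region chrX:4540517-4545927, 827 kb from PRKX, a protein kinase gene, was at 28.0 and 19.4 with loci of 5410 and 5411 bases. The region chr18:78806884-78814230, 166 kb before SALL3, a zinc finger factor, was at 22.9 and 17.0, and SALL3 was at 0.260 and 0.252. The region chr1:244748127-244752519, 39.1 kb past DESI2, was at 22.7 and 14.7. These 3 overlap no listed gene, and all were higher in replicate 1. The region chr9:115956097-115958922, 31.0 kb before LINC00474, overlaps a RefSeq noncoding gene known by a LOC number and was at 14.3 and 21.2, higher in replicate 2.

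Other high regions fell in noncoding genes of GENCODE 29. AL590004.3, listed by RefSeq as TGILR, lies in chr6:3903913-3912026, which was at 13.3 and 21.2 with loci of 8086 and 8080 bases. LINC00958, a noncoding RNA studied in bladder cancer, lies in chr11:12956010-12965244, which was at 18.0 and 15.2. AL365295.1 holds chr14:53684966-53686871 in an intron, at 21.1 and 25.1. CCDC144NL-AS1, a noncoding gene of chromosome 17, spans the neighbouring regions chr17:20896103-20897604, at 23.1 and 29.6, and chr17:20897708-20898882, at 20.7 and 23.7. The first of this pair also touches an exon of CCDC144NL, and both were higher in replicate 2.

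Coding genes and pseudogenes made up the rest of the 20. An exon of HIST1H2AC, a gene for the core histone H2A, covers most of chr6:26137927-26139304, which was at 26.2 and 40.1, whereas the named gene (H2AC6) had a span ending 13.2 kb away and was at 49.2 and 37.996. The ubiquitin pseudogene UBBP4 fills chr17:22204087-22205253, at 33.3 and 30.0; its sequence is near that of other ubiquitin genes, so reads may have been placed among copies and its level is uncertain. The region chr22:26492298-26495532, over exons of SRRD and of the splicing factor gene TFIP11, was at 18.5 and 21.7. In BCAN, which encodes a proteoglycan of the brain, chr1:156642203-156646868 was at 19.5 and 18.4, and in APC2, a relative of the tumour suppressor APC, chr19:1457198-1461827 was at 19.4 and 15.1. The BCAN region also touches exons of the antisense genes AL590666.2 and AL365181.3. The APC2 region also touches exons of the coding gene C19orf25 and the antisense gene AC027307.2. Without strand, these levels cannot be assigned to any of the overlapping genes. Both BCAN and APC2 were listed at 0 in both libraries, although Cufflinks can list 0 where its estimate did not succeed. The region chr19:58314620-58315648 overlaps ERVK3-1, an endogenous retroviral gene, at 19.1 and 16.7. The region chr7:93807184-93811774, in an intron of GNGT1, a G protein subunit of rod cells, was at 15.6 and 19.0, against 1.63 and 1.42 for GNGT1.

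The 5 regions of longest transcript were weaker, apart from the one near RPE65. The longest, chr19:27756972-27779584 over exons of LINC00662, had a single transcript of 21918 bases in replicate 2 and 2 loci, the longer of 14970 bases, in replicate 1, at FPKM 3.49 and 5.70. At KANTR, a gene next to KDM5C that GENCODE 29 lists as protein-coding, chrX:53155347-53170899 was 1 transcript of 15553 bases in replicate 2 and 4 loci in replicate 1, at 1.55 and 2.30. In an intron of AC129926.2, chr17:27148530-27160774 was at 4.34 and 4.68 with transcripts of 11839 and 12245 bases. At Z68871.1, chrX:102905656-102916979 was at 2.35 and 2.70 with transcripts of 6801 and 11324 bases. Level and length were nearly unrelated over the 955 regions (Spearman rho 0.14, a description over regions that share the same libraries).

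**Figure D2:**
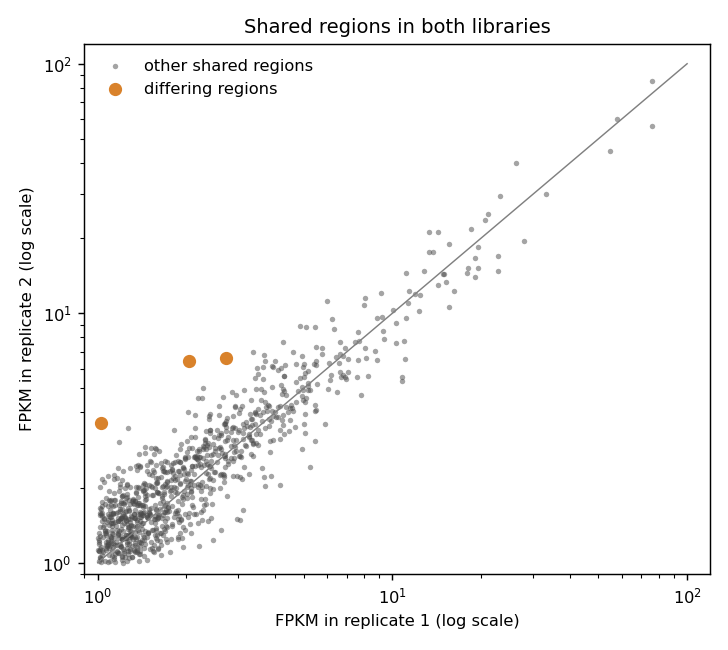
FPKM of each of the 955 shared regions in replicate 1 (x axis) and replicate 2 (y axis), both on log scales; the line marks equal values and the 3 larger orange points are the regions that differ. Points crowd near 1, where the rule begins, and 593 of 955 lie above the line.

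Levels of shared regions were close in the libraries. Over the 955 regions Pearson's r of log2 FPKM was 0.94 and Spearman's rho was 0.84, across regions that are not independent replicates. The log2 ratio of (FPKM + 1), replicate 2 over replicate 1, had a median of 0.08 and an SD of 0.28, and 818 regions (85.7%) lay within 1.5-fold. In replicate 2, 593 regions were higher, against 362 in replicate 1. Named genes at FPKM 1 or more in either library had a median log2 ratio of -0.04. At a mean FPKM of 1 to 10 their median was 0.02. How many named genes were higher in replicate 2 was not counted. Regions at a mean FPKM of 10 or more numbered 40, those at 20 or more 11, and 501 were under 2. The requirement of FPKM 1 or more in both libraries removes regions that are low in either, which narrows these ratios.

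A region counted as differing when its absolute log2 ratio was 1 or more and its confidence bounds did not overlap, and 3 of 955 did so (0.314%). Among named genes at FPKM 1 or more in both libraries, the same rule took 53 of 10688 (0.496%), with 0.15% called as higher in replicate 2. Among named genes at FPKM 1 or more in either library it took 103 of 11120 (0.926%), with 0.369% called as higher in replicate 2. The share of differing regions under this rule was thus near that of named genes. Bounds alone did not overlap for 378 regions (39.6%), against 46.9% of the named genes at a mean FPKM of 1 to 10 and 57.0% of all 11120. The median FPKM of named genes detected in both libraries was 12.3 in replicate 1 and 11.9 in replicate 2, above that of the regions. The count rose to 10 with a pseudocount of 0.1. It rose to 97 of 1765 (5.50%) when each long locus was set against assembled loci of any length and level in the other library. No like share of named genes was computed for these 2 settings, so they cannot be set against the shares above.

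All 3 differing regions were higher in replicate 2. In an intron of MPP7, which encodes a scaffold protein of cell junctions, chr10:28078038-28080050 was at 2.04 and 6.43 (log2 ratio 1.29), while MPP7 itself was at 10.0 and 6.58. On the short arm of chromosome 21, chr21:8989106-8990342 was at 1.03 and 3.63 (log2 ratio 1.19). It lay just inside both marks, by its level in replicate 1 and by its 1004 bases in replicate 2. On chromosome 2, chr2:94781996-94784143 was at 2.72 and 6.62 (log2 ratio 1.03) within ANKRD20A8P, a transcribed pseudogene in RefSeq. Repeated copies exist for the ankyrin pseudogene family, so its level is uncertain. Each of the 3 had other shared regions within 5 kb. Averaged by length with these neighbours, levels were 1.42 and 3.90 at MPP7 in replicates 1 and 2. They were 3.25 and 6.26 on chromosome 21 and 2.87 and 5.29 on chromosome 2.

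**Figure D3:**
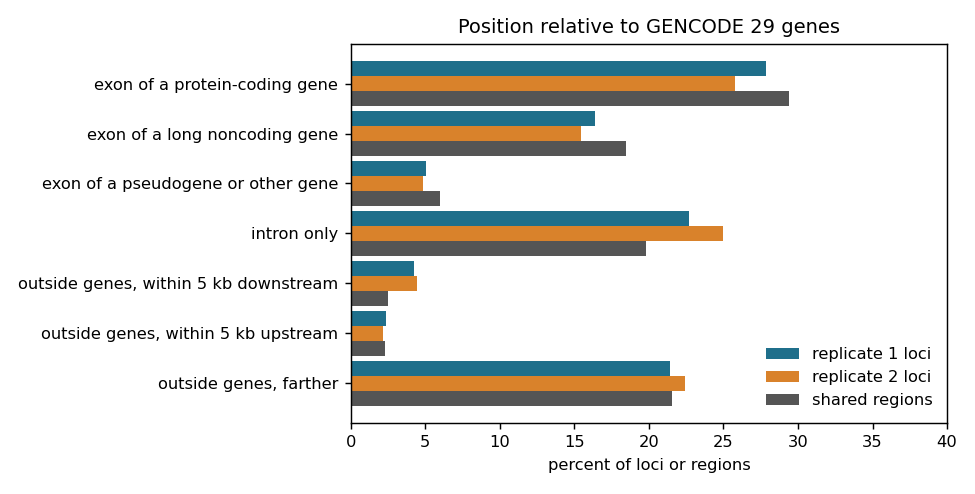
Percent of long loci in replicate 1, long loci in replicate 2 and shared regions (x axis) that fall in each position class of GENCODE 29, taking the classes from top to bottom and each locus once. Exons of protein-coding genes form the largest class in all 3 sets, at 29.4% of shared regions.

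Position against GENCODE 29 was not a criterion of the rule, but a locus joined to a reference transcript of the deposited tables was left out, so the choice partly sets the position against known genes. By GENCODE 29, taking exon overlap of any extent before introns, 281 shared regions (29.4%) touched an exon of a protein-coding gene, 176 (18.4%) an exon of a long noncoding gene and 57 (5.97%) an exon of a pseudogene or other gene. A further 189 (19.8%) lay in introns only. Outside all genes, 24 lay within 5 kb past the end of a protein-coding gene, 22 within 5 kb before its start, and 206 (21.6%) farther away. Where a region touched a protein-coding exon, a median of 56.7% of its bases was exon, and 80 of the 281 lay wholly in exon. Median FPKM by class ranged from 1.39 past gene ends to 2.08 in exons of long noncoding genes in replicate 1, and in replicate 2 from 1.53 before gene starts to 2.198 in exons of long noncoding genes.

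Short loci fell elsewhere. Among assembled loci under 1000 bases at FPKM 1 or more, introns alone held 42.3% of 12765 in replicate 1 and 50.6% of 19021 in replicate 2, against 22.7% and 24.99% of the long loci. Exons of long noncoding genes held 8.36% and 6.23% of the short loci and 16.4% and 15.4% of the long loci. The direction was the same in both libraries, and a longer span has more room to touch an exon, so length and position cannot be told apart here.

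The share inside known genes depended on the gene catalogue. Against spans of named genes in the deposited tables, 244 shared regions (25.5%) overlapped and 711 did not, and 334 (35.0%) overlapped some reference transcript, named or not. Of the 621 regions outside every deposited reference span, 298 (48.0%) touched an exon of GENCODE 29, 379 overlapped a gene of RefSeq on GRCh38.p14, and 134 overlapped neither. With GENCODE 29 gene spans in place of the deposited ones, 73.6% of shared regions lay inside a gene. Genes numbered with the prefix LINC0 show this: 29 shared regions touched exons of 23 such genes, led by LINC00958 and LINC00973, and 0 of the 29 lay inside a named span of the deposited tables.

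**Figure D4:**
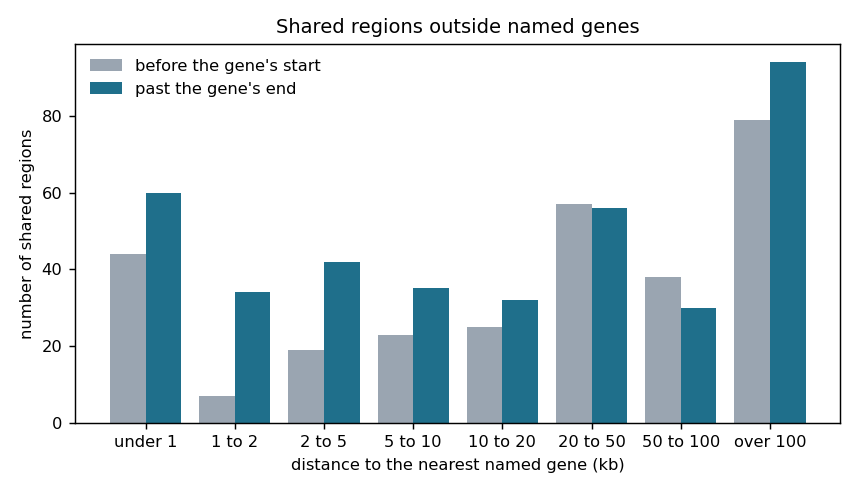
Number of shared regions (y axis) by distance to the nearest named gene in kb (x axis, unequal bins), for the 675 regions outside named genes whose side could be told. Within 5 kb, 136 lay past a gene's end and 70 before a gene's start.

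Outside named genes, more regions lay past the end of the nearest gene than before its start. Of 711, the side could be told for 675, with 383 past the end and 292 before the start, and 60 lay within 1 kb past the end and 44 within 1 kb before the start. Within 5 kb the counts were 136 and 70. Beyond 50 kb lay 266 regions, with a median FPKM of 2.00 and 2.18, against 1.81 and 2.03 over all shared regions.

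Regions just past a gene's end were mostly much weaker than the gene where the gene was at FPKM 1 or more. Of 126 measured genes with a region within 5 kb past the end, 113 (89.7%) were at FPKM 1 or more in both libraries, against 49.1% of all 23222 named genes. The region stood at a median of 16.0% of its gene's FPKM in replicate 1 and 17.7% in replicate 2, and 79 of the 136 regions (58.1%) touched an exon of some protein-coding gene in GENCODE 29, of that gene or of another. Among the 118 regions whose gene was at FPKM 1 or more in both libraries, the region exceeded its gene in both libraries in 5. Regions whose gene was below that level in a library were left out of this count. By the rule such a region exceeded its gene there, as at POU3F3. Regions before a gene's start gave near values: 60 of 68 measured genes (88.2%) were at FPKM 1 or more, and the region stood at a median of 14.02% and 14.3% of the gene.

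Examples from the highest of these were chosen after their values were seen. Past EDN1, which encodes the vasoconstrictor endothelin 1, chr6:12297232-12298426 began 38 bases beyond the gene and was at 11.1 and 14.5, above EDN1 at 6.37 and 7.90. Past the deposited end of POU3F3, a transcription factor gene, chr2:104857192-104858784 was at 3.41 and 5.51, and POU3F3 was at 0.957 and 0.690. In GENCODE 86.8% of that region is exon of POU3F3 itself. At RNF115, a ubiquitin ligase gene, the order was the reverse, with chr1:145743842-145745950 at 7.69 and 7.74 and the gene at 33.9 and 30.1. The RNF115 region lies wholly in exon of RNF115 in GENCODE. Neither the POU3F3 nor the RNF115 region is thus shown to be separate from its gene. Before ZNF496, chr1:247331910-247334890 was at 8.87 and 6.48, and the gene was at 22.9 and 22.8.

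Some regions formed rows with short gaps. With gaps of 5 kb or less, the 955 regions fell into 832 groups, of which 98 held 2 or more regions and 221 regions in all (23.1%). The largest row had 7 regions over 25.3 kb from chr2:94763025-94788338, at and beside ANKRD20A8P, with gaps of 63 to 734 bases. Its regions ranged from 2.18 to 3.69 in replicate 1 and from 4.59 to 6.62 in replicate 2, and these ranges did not overlap. A row of 5 regions over 28.7 kb, chr6:48072124-48100847, lay before the start of PTCHD4 as the deposited tables list it and inside its span in RefSeq. PTCHD4, a gene that p53 is known to induce, was at 20.04 and 21.5. The row ranged from 1.04 to 1.70 in replicate 1 and from 2.16 to 2.57 in replicate 2, again without overlap, and its loci covered 14.7 and 27.3 kb. Regions of a row may be pieces of a single RNA, and their values are then not separate observations.

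A few noncoding genes held several regions each. AC129926.2 on chromosome 17 had 8 between positions 27090925 and 27171733, 1 of them at an exon, at 1.04 to 14.2 in replicate 1 and 1.13 to 12.9 in replicate 2. LINC00662 on chromosome 19 had 5, covering 41.1 and 48.9 kb, at 1.11 to 6.88 and 1.25 to 5.70. MIR4435-2HG, the host gene of a microRNA, had 4, all touching exons, at 1.18 to 6.68 and 1.09 to 5.54. Of 839 GENCODE genes whose span met a shared region, 732 met 1 and 18 met 3 or more.

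**Figure D5:**
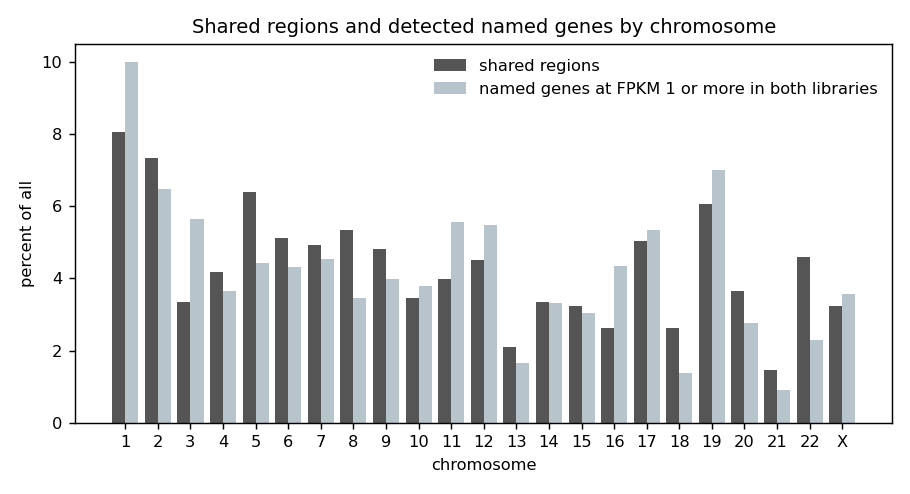
Percent of the 955 shared regions and of the 11413 named genes at FPKM 1 or more in both libraries (y axis) on each chromosome (x axis). Chromosome 1 held 8.06% of regions and 10.0% of genes, and chromosome 22 held 4.61% of regions and 2.30% of genes.

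Shared regions were spread over all chromosomes but Y and the mitochondrial genome, with 5 on scaffolds. Set against named genes at FPKM 1 or more in both libraries, chromosome 22 had 16.8 regions for each 100 such genes and chromosome 18 had 15.9. At the other end chromosome 3 had 4.95 and chromosome 16 had 5.03. Chromosome 1 had the most regions, 77, and its ratio of 6.75 was in the lower part of the range. The copy number of each chromosome in this line was not measured here, so gene density and copy number cannot be told apart from these counts.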

How the data were processed

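RNA of 2 untreated libraries of 1 cell line was measured after poly(A) bead capture and a directional kit, per the labels. Per the submitters' processing notes, transcripts were built with Cufflinks 2.2.1 on GRCh38, after TopHat2 2.0.13 with Bowtie2 2.2.3, Trimmomatic 0.32 and FastQC 0.11.2. The settings are not stated, and the sources used here do not name the annotation release. The authors deposited FPKM with confidence bounds and, per transcript, length and a coverage signal, per the file headers. Each library was assembled separately, so loci were matched by position.

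Locus starts had 1 added: 8977 of 23421 gene starts then equalled RefSeq and 249 did before. Reference transcripts were named through RefSeq accessions (GRCh38.p14) or the files' gene names; 57352 of 95369 in replicate 1 and 57004 of 95329 in replicate 2 got a symbol. Position classes came from GENCODE 29. The strand of a nearest named gene came from a reference promoter list, or from GENCODE 29 where that list lacked the gene. Where a region held several loci, FPKM and bounds were averaged by length. Differing meant an absolute log2 ratio of (FPKM + 1) of 1 or more with bounds apart; this scale understates changes of low values, and bounds cover estimation within a library only. No p-value was computed. Matching and calling were tested on simulated data. Python 3.11.15, pandas 2.3.3, numpy 2.4.6, networkx 3.6.1 and matplotlib 3.10.9 were used.

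Members and lists were chosen with earlier results of these data known. Regions were named by rule: the 20 of highest mean FPKM, the 5 longest, the differing ones (up to 10), and the 5 highest unmatched loci per library, with the 3 values each side of both marks. Others were named after their values were seen. An unmatched locus that the rule names, and some sequences, are not reported here. Alternatives changed the length mark, the FPKM mark, the overlap, the gene spans, the pseudocount and the scaling.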

Additional observations from a re-analysis of the deposited data

How the results depend on the processing

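Counts followed the marks that define the loci. With 500 bases or more there were 3116 and 4145 loci, 1820 shared regions and 28.4% inside named spans; with 2000 bases or more, 544, 732, 395 and 23.3%, and 1 differing region. With FPKM 2 or more the values were 546, 642, 396 and 28.0%, and with FPKM above 0 they were 3099, 4203, 1909 and 25.1%. Restricting to a status of OK changed none of these counts. An overlap of at least 50% of each span left 862 shared regions, 25.1% inside named spans and 4 differing. Leaving out each library in turn, 1392 and 1748 members overlapped any entry of the other library, and 25.8% to 26.2% of members lay inside named spans. That share was 18.0% with named genes at FPKM 1 or more and 73.6% with GENCODE 29 spans. Differing regions numbered 10 with a pseudocount of 0.1, 97 of 1765 (5.50%) against assembled loci of any length and level, 2 with FPKM rescaled to a common sum and 3 by the ratio alone. The share of named genes was not computed under these settings. The share of unspliced regions was 100% under every alternative run on it (lengths, levels, status, overlap, each library alone). No paired analysis was possible because there is 1 group. Absolute depth is unknown, both libraries may be technical repeats, and the tables hold no strand, so neither the strand nor the ends of these RNAs can be read from them.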

Other observations

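Histone genes, whose replication-dependent members are known for messenger RNA that ends in a stem loop rather than a poly(A) tail, held 6 shared regions over exons of 7 genes in GENCODE 29, or 0.628% of shared regions, and histone genes made up 0.254% of named genes at FPKM 1 or more in both libraries. Below the region at HIST1H2AC came those at HIST1H2BJ (4.86 and 5.51 in replicates 1 and 2), HIST1H2BC (3.91 and 5.05), HIST1H4H (2.13 and 2.68) and HIST1H2BE (1.29 and 2.00), and one at the pseudogenes HIST2H2BD and HIST2H2BC (2.39 and 2.90). All 6 were higher in replicate 2, as were 593 of all 955 shared regions, and 0 lay inside a named gene span of the deposited tables, against 25.5% of all. Exons of zinc finger genes in GENCODE 29 were touched by 21 of the 955 regions, none above 3.94, with 3 in ZNF8. Such genes made up 3.52% of named genes at FPKM 1 or more in both libraries. Regions that lay in a zinc finger gene without touching its exons were not counted. One of them, chr19:43893778-43900862 in the span of ZNF404, was at 12.4 and 11.9. At RUNX2, the transcription factor that directs bone formation, the region chr6:45662888-45666859 touched an exon of GENCODE 29 that lies 112 kb past the end of the gene in the deposited tables. It was at 3.83 and 2.79, and RUNX2 was at 2.25 and 3.03. These genes were chosen after their values were seen.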
